A study of Mus musculus with 374 samples.

Results

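Flt3 is a receptor tyrosine kinase at the surface of early blood progenitors, and its ligand supports the survival and growth of the cells that carry it. In mouse bone marrow the cells that lack lineage markers and carry c-Kit and Sca-1 include long-term stem cells, on which Flt3 protein is low or absent, and multipotent progenitors that gain it. Progenitors with much Flt3 keep lymphoid and myeloid potential and are known for a reduced output of megakaryocytes and erythrocytes.

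Here the 94 progenitor/stem cells with at least 3000 unique molecular identifiers (UMIs, each standing for 1 captured transcript) on mouse genes were divided by their Flt3 transcripts, the groups being chosen by the Flt3 UMI count of each well: 75 wells with 1 or more Flt3 UMIs (Flt3-positive) and 19 wells with 0 (Flt3-negative), out of 95 progenitor/stem wells and 374 wells in the series. The Flt3 values are a description, and no comparison of the groups is a test. The cells came from the marrow of 1 female C57BL/6 mouse of 10 to 13 weeks and were gated as lineage-negative, c-Kit-positive and Sca-1-positive. They filled rows K to N of the plate. B lymphocytes, granulocytes and erythroblasts of the same marrow and T lymphocytes of the thymus of this animal shared the plate, and each well was profiled by a modified CEL-seq2 protocol, which counts the 3′ ends of polyadenylated RNA. Because all wells came from 1 animal, each group is 1 sample with no replicate check: the intervals cover counting error only, and no p-value, standard error or number of differentially expressed genes is given.

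The rule rests on few molecules. Of the wells used, 19 held 0 Flt3 UMIs, 17 held 1, 13 held 2 and 9 held 3, and the highest count was 18. The summed Flt3 level was 549 CPM (UMIs per 1000000 UMIs on mouse genes) in the Flt3-positive wells, and single wells had 90.1 CPM at the lowest, 466 at the median and 1615 at the highest. A well with 0 UMIs is not a well without the transcript: taking 3 UMIs as the limit that a count of 0 allows, the Flt3-negative wells could hold 198 to 678 CPM each, with a median of 360 CPM, and 35 of the Flt3-positive wells lay below that median. Over the summed Flt3-negative wells the limit was 18.3 CPM. The well nearest to the depth threshold among those left out, K5, had 2003 UMIs and 0 of Flt3, and the shallowest well used had 3635.

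Flt3 transcripts were more frequent in the gated population than in the others. A Flt3 UMI was seen in 79.8% of the progenitor/stem wells (exact binomial interval 70.2 to 87.4%, median depth 8019 UMIs), against 4.55% of 22 B lymphocytes (median 3794), 16.7% of 36 T lymphocytes (4767), 10.6% of 66 granulocytes (4650) and 7.45% of 94 erythroblasts (6199). Brought to an equal depth of 3000 UMIs by calculation, the expected share was 59.2% in the progenitor/stem cells and between 3.01 and 8.33% in the other populations. No B or T lymphocyte had 2 or more Flt3 UMIs, whereas 58 progenitor/stem wells, 1 granulocyte and 1 erythroblast did.

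**Figure D1:**
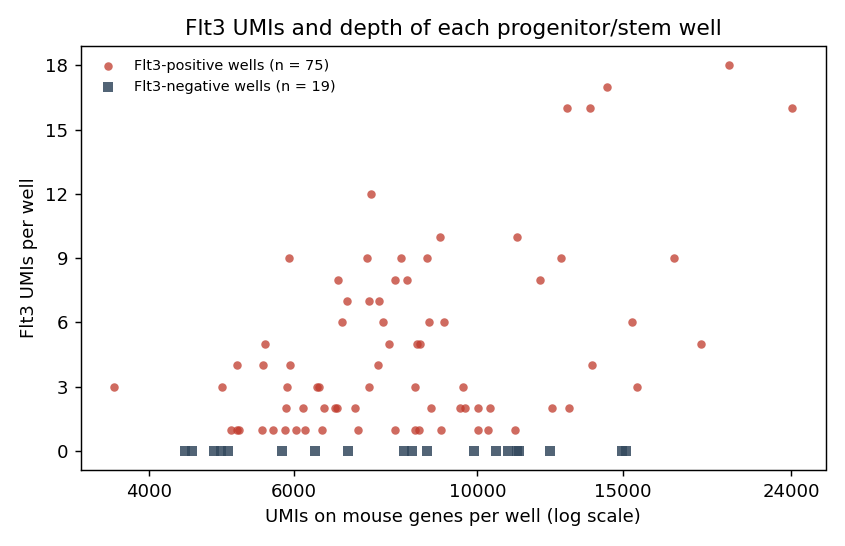
Flt3 UMIs of each progenitor/stem well (vertical axis) against its UMIs on mouse genes (horizontal axis, log scale); red circles are the 75 Flt3-positive and dark squares the 19 Flt3-negative wells. The Flt3-negative wells spread over depths from 4428 to 15141 UMIs, within the range of the Flt3-positive wells, although the wells with 16 to 18 Flt3 UMIs were all deeper than the medians of both groups.

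Depth did not separate the groups. The Flt3-positive wells held 3635 to 24033 UMIs with a median of 7956, and the Flt3-negative wells 4428 to 15141 with a median of 8336. In 52.1% of all pairs of a positive and a negative well the positive well was the deeper one. The median number of genes with a UMI was 3358 against 3582. Plate position did differ: the negative wells numbered 3, 3, 5 and 8 in rows K, L, M and N, and the positive wells 20, 21, 18 and 16. When every well was set against the summed profiles of the 5 sorted populations, all 75 positive and all 19 negative wells were nearest to the progenitor/stem profile, and the 5 progenitor/stem marker genes other than Flt3 (Kit, Cd34, Adgrg1, Meis1 and Hlf) summed to 3104 CPM in the positive and 3036 CPM in the negative wells.

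The regions just upstream of Flt3 and of Dntt, the protein-coding gene with the interval farthest above 0, are shown because these transcripts were high in the same wells. Both stretches run from 250 bases before to 50 bases after the annotated start (RefSeq, GRCm38.p6), and capitals mark CANNTG, the core letters of an E-box, which reads the same on both strands. The Flt3 window lies at chr5:147400440-147400739 on the minus strand and the Dntt window at chr19:41029025-41029324 on the plus strand.
Flt3: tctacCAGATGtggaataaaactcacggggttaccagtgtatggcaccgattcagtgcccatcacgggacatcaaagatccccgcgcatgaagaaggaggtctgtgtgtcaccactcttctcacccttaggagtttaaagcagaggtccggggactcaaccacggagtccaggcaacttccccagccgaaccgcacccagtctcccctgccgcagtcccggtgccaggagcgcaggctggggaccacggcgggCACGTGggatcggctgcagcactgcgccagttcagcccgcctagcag
Dntt: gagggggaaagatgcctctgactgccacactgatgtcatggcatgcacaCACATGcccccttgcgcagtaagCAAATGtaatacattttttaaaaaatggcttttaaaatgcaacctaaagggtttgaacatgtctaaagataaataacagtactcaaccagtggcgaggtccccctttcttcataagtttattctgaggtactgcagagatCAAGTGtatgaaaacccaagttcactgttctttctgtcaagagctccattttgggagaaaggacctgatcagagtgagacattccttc
The letters occurred 2 times in the Flt3 window and 3 times in the Dntt window, and 72.3% of 32851 mouse promoter windows of this length hold at least 1 match, so the matches describe the sequence and set neither gene apart.

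Across the 3271 genes other than Flt3 with at least 50 UMIs over both groups, most levels were alike. The median log2 ratio of CPM (Flt3-positive over Flt3-negative sums) was -0.03, and the 5th and 95th percentiles were -0.72 and 0.84. A log2 ratio of 1 or more was reached by 96 genes (2.93%) and of -1 or less by 42 genes (1.28%). With TMM scaling of the sums, which moved the median to 0.10, these counts were 144 and 25, and in depth-matched wells 115 and 166. Counted by interval, 154 genes lay above 0 and 187 below, so neither side was larger by every count. With a filter of 100 UMIs, which 1468 genes passed, the counts past a log2 ratio of 1 and -1 were 24 and 7. How much of these counts is counting error or spread between wells was not tested. The genes on each side are described by role.

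As a summed list, lymphoid priming genes were higher in the Flt3-positive wells. Dntt, which encodes terminal deoxynucleotidyl transferase, the enzyme that adds bases to antigen receptor joints, had 317 UMIs in the positive and 8 in the negative wells, or 474 against 48.8 CPM, a 9.72-fold difference (log2 3.28, interval 2.28 to 4.51). Per well its level was 0 at the lowest, 57.8 at the median and 5785 CPM at the highest among positive wells, and 0, 0 and 1403 CPM among negative wells. The difference was thus carried by some wells and not by all: 38 of 75 positive wells had a Dntt UMI, 16 had 5 or more, and 5 wells held 55.2% of the positive total. Without L6, the well with 73 Dntt UMIs, the log2 ratio was 2.93, with wells weighted equally it was 2.33, after thinning to 3000 UMIs per well (1 random draw) 1.94, and in rows K and L alone 1.65. Of the 8 UMIs in the negative wells 7 lay in L24, a well of 4990 UMIs in which 0 Flt3 UMIs allow up to 601 CPM. Without L24, 1 Dntt UMI remained in the negative wells, and the log2 ratio with sums under 3 UMIs set to 3 was 4.65. A Dntt UMI was seen in 10.5% of the negative wells, near the 9.57% of erythroblast wells, which should lack this transcript.

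Ighm, the constant region of the IgM heavy chain, from which early lymphoid progenitors make a germline transcript, had 166 UMIs in the positive and 2 in the negative wells (248 against 12.2 CPM, log2 4.35, interval 2.47 to 7.41). The median positive well had 104 CPM and the highest 1256 CPM, while the highest negative well had 91.9 CPM, and 40 of 75 positive wells lay above every negative well. Ighm UMIs also occurred in 37.9% of granulocyte and 19.1% of erythroblast wells, at 135 and 54.2 CPM, so the positive wells lay above that background as a sum and the negative wells below it. Dntt and Ighm were seen together in 27 of 75 positive wells and in 0 of 19 negative wells. Alone, Dntt was seen in 38 and Ighm in 43 of the positive wells. Each was in only 2 of the negative wells, so a joint count of 0 there says little. Rag1 and Rag2, which encode the recombinase of antigen receptor genes, had 5 and 11 UMIs in the positive wells and 0 in the negative wells, and Il7r, the interleukin 7 receptor, had 6 and 0. Such counts are at or near the limit of detection, since 0 UMIs allow 18.3 CPM over the negative wells.

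The other lymphoid priming genes differed less. Cd52, a small surface glycopeptide of lymphocytes, was at 182 against 48.8 CPM (log2 1.90, interval 0.88 to 3.15), and no negative well exceeded 230 CPM while 20 positive wells did. After thinning to 3000 UMIs per well (1 random draw) its log2 ratio was 0.52. Cd53, a tetraspanin of leukocytes, was at 205 against 85.3 CPM (log2 1.26). Satb1, a chromatin organiser of lymphoid cells, was at 117 against 42.7 CPM (log2 1.45), and Lax1, an adaptor of antigen receptor signalling, at 74.8 against 24.4 CPM (log2 1.62). Of the 7 negative Satb1 UMIs M21 held 4, and without it the log2 ratio was 2.61. Without K12, the positive well with most Satb1 UMIs, the log2 ratio was 1.35. The transcription factors were closer to even, with log2 ratios of 0.75 for Tcf4, 0.57 for Ikzf1, 0.40 for Mef2c and -0.05 for Tcf3. The common gamma chain (Il2rg, 0.12) had an interval that includes 0. As a list, 6 of the 15 lymphoid priming genes with enough UMIs reached a log2 ratio of 1 or more, against 2.93% of all genes tested. At -1 or less there were 0, against 1.28% of all genes tested. Of the 15 genes 14 were higher, and their median was 0.78 against -0.03 over all genes. Summed over its 27 genes the list was at 3485 against 1835 CPM (log2 0.93, interval 0.75 to 1.10). The sum was lower in relative terms when each well was thinned to 3000 UMIs (0.45, 1 random draw) or weighted equally (0.75), and the positive sum exceeded the negative sum within each of rows K, L, M and N, at 3780 against 1931, 3440 against 1845, 3970 against 2223 and 2525 against 1562 CPM. Markers of mature lymphocytes were scarce. The 8 B lymphocyte markers summed to 139 against 61.0 CPM (0 to 696 CPM per positive and 0 to 202 CPM per negative well), with Pax5 at 0 UMIs in both groups and Ms4a1 at 1 and 0. The 10 T lymphocyte markers summed to 76.3 against 36.6 CPM (0 to 417 and 0 to 285 CPM per well), with Cd3g at 0 in both. Their part in the lymphoid values was not tested.

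Outside the lymphoid list, 2 abundant or widely detected genes gave the narrowest intervals above 1. H2afy, which encodes the histone variant macroH2A1, was at 2703 against 1055 CPM (1808 and 173 UMIs, log2 1.36, interval 1.13 to 1.59). Positive wells ran from 0 through a median of 2381 to 6808 CPM and negative wells from 534 through 862 to 2605 CPM, so the groups overlapped, with 34 positive wells above all negative ones. In rows K and L alone the log2 ratio of H2afy was 0.86. Emb, embigin, a membrane glycoprotein that accompanies lactate transporters, was at 356 against 85.3 CPM (log2 2.06, interval 1.28 to 2.95). The median Emb level was 315 CPM in the positive and 0 in the negative wells, and 63 of 75 against 7 of 19 wells had a UMI. Both shifts were spread over many wells: the positive well was the higher one in 82.7% of pairs for H2afy and 81.1% for Emb. Their exons share bases with an opposite-strand gene model, as do those of Cd52, and those of Satb1 with models on both strands, and the sources used here do not state whether strand was used in counting.

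The remaining named genes on this side had fewer UMIs. Adgrg3, an adhesion G protein-coupled receptor, was at 324 against 116 CPM (log2 1.49, interval 0.81 to 2.25). Its log2 ratio was 2.17 without the negative well M24 and 1.44 without the positive well K1. Dock10, an exchange factor for small GTPases, was at 266 against 116 CPM (1.20). Sla, an adaptor that dampens antigen receptor signals, had 66 and 3 UMIs (2.43, interval 0.82 to 4.75). Ptk2b, a focal adhesion type kinase, had 90 and 7 UMIs (1.66), Dhrs3, a retinal reductase, 60 and 3 (2.29), and the interferon-induced Ifi44 59 and 3 (2.27). Wfdc17, a small secreted protein, had 56 UMIs in 23 positive wells and 0 in the negative wells, at least 4.58-fold higher when 3 UMIs are allowed over the negative sum, and its log2 ratio after thinning was 0.52. Lars2, the mitochondrial leucyl-tRNA synthetase, was abundant and differed least, at 4175 against 2567 CPM (0.70, interval 0.55 to 0.85), with medians of 2764 and 2708 CPM per well. The difference in Lars2 therefore lay in a group of high wells, 21 of which exceeded every negative well, and the typical wells were alike. In rows K and L alone Dhrs3, Ifi44, Wfdc17 and Sla had log2 ratios between 0.17 and 0.53, there against 6 negative wells.

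**Figure D2:**
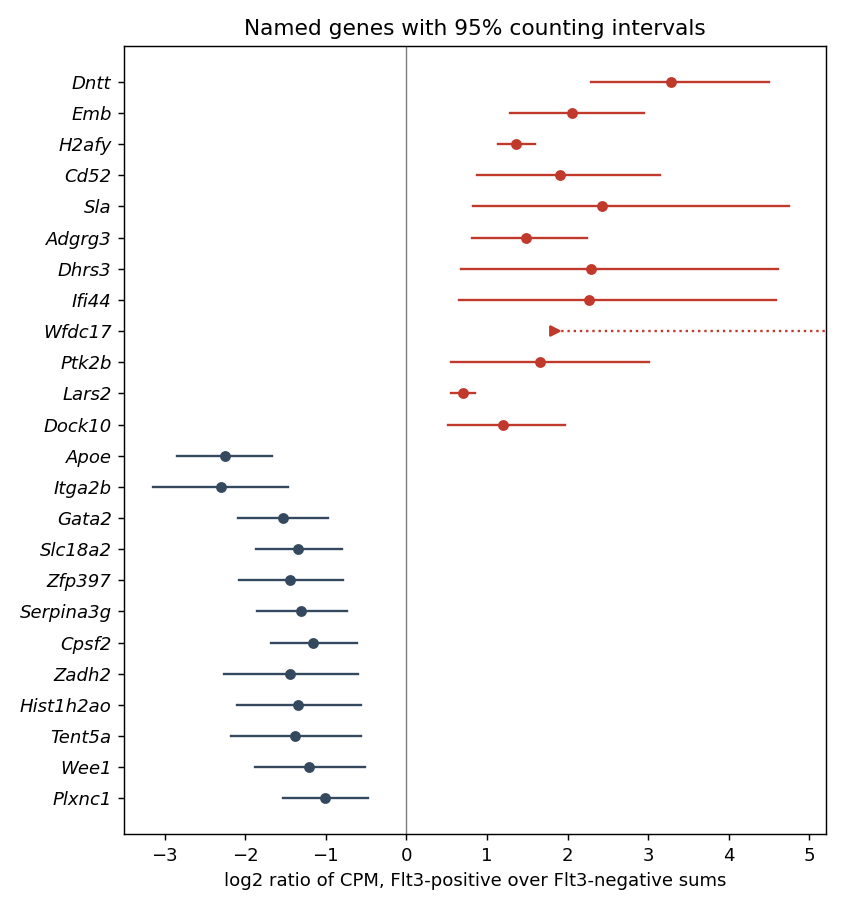
Log2 ratio of CPM (horizontal axis, Flt3-positive over Flt3-negative sums) for the 12 named genes on each side, with 95% exact counting intervals as bars; the arrow for Wfdc17, which had 0 UMIs in the negative wells, starts at the lower bound. Dntt has the highest finite ratio, 3.28, and Itga2b the lowest, -2.30.

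Among the named genes, Itga2b, Apoe and Gata2 had the intervals farthest below 0. Itga2b, the integrin chain CD41 of platelets and megakaryocytes, had 24 UMIs in the positive and 29 in the negative wells, or 35.9 against 177 CPM (log2 -2.30, interval -3.14 to -1.47), a level 4.93-fold higher in the negative wells. An Itga2b UMI was found in 18 of 75 positive and 12 of 19 negative wells, and its median per well was 0 against 101 CPM. Apoe, the lipid carrier apolipoprotein E, was at 70.3 against 335 CPM (log2 -2.25, interval -2.85 to -1.67), with medians of 0 and 202 CPM per well. Gata2, a zinc finger transcription factor required for stem cell maintenance and also active in megakaryocyte and mast cell precursors, was at 103 against 299 CPM (log2 -1.53, interval -2.08 to -0.97), with medians of 77.4 and 222 CPM. For each of the 3 genes the ranges of the groups overlapped, and the positive well was the higher one in 26.4 to 28.7% of pairs. Without N3, the well with 15 Apoe and 8 Itga2b UMIs, the log2 ratios were -1.93 and -1.97, and in depth-matched wells that of Apoe was -1.41. Of the mature populations only granulocytes are given here for these genes. They had a Gata2 UMI in 12.1%, an Itga2b UMI in 1.52% and an Apoe UMI in 16.7% of wells, against 84.2, 63.2 and 73.7% of the Flt3-negative wells. Depth was unlike, with medians of 4650 UMIs in the granulocytes and 8336 in the Flt3-negative wells. Brought to 3000 UMIs by calculation, the Flt3-negative shares were 54.5, 32.6 and 48.2%.

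Pairs of Itga2b, Apoe and Gata2 were seen in a larger share of the negative wells. The genes were picked as low in this same split, so that direction was built in. Apoe and Itga2b shared 10 of 19 negative and 8 of 75 positive wells, Gata2 and Itga2b 10 and 13, and Apoe and Gata2 12 and 17. Alone, Apoe was seen in 14 of 19 negative and 30 of 75 positive wells, Itga2b in 12 and 18, and Gata2 in 16 and 39. Whether the pairs occurred more often than these single counts give was not tested. Of the 6 genes Dntt, Ighm, Rag1, Rag2, Il7r and Blnk, the last an adaptor of the B cell receptor, at least 1 was seen in 57 of 75 positive wells and in 4 of 19 negative wells. Dntt and Ighm were far higher in the positive wells of this same split, and the other 4 genes had 0 UMIs in the negative wells. The direction of this count was therefore built in as well.

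**Figure D3:**
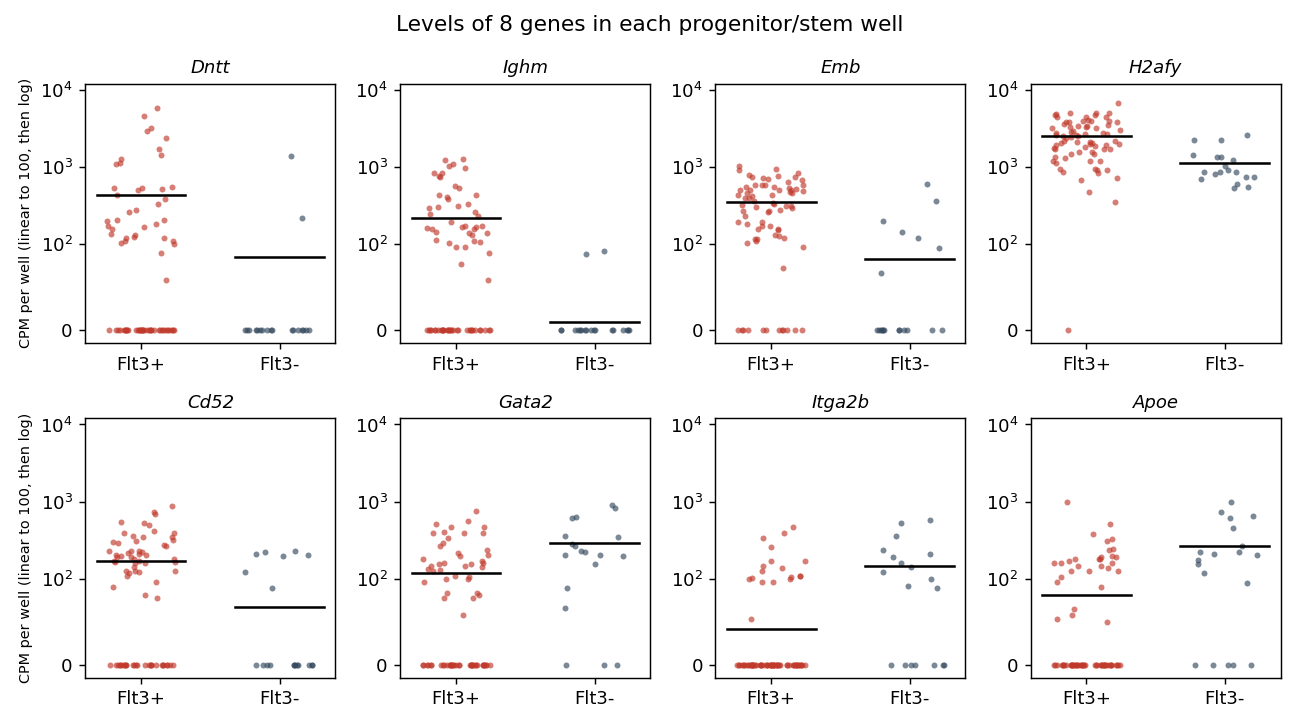
CPM of 8 genes in each well (vertical axis, linear to 100 CPM and logarithmic above) for the 75 Flt3-positive (Flt3+, red) and 19 Flt3-negative wells (Flt3-, dark); points are wells, spread sideways at random, and black lines are the means over wells. Dntt and Ighm are at 0 in most negative wells, whereas H2afy is found in both groups and shifts as a whole.

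The full list of megakaryocyte and erythroid priming genes did not move as Itga2b and Apoe did. Of its 8 genes with enough UMIs, 2 (these same 2) were at -1 or less, against 1.28% of all genes tested. At 1 or more there were 0, against 2.93% of all genes tested, and 6 of 8 were lower, with a median of -0.35. Their sum was 2901 against 3359 CPM (log2 -0.21, interval -0.35 to -0.07), and with wells weighted equally the log2 ratio was -0.043. Among its megakaryocyte genes, Pf4, platelet factor 4, had 7 and 8 UMIs (log2 -2.22, interval -3.92 to -0.56), and Gfi1b, a transcriptional repressor, 12 and 10 (log2 -1.76, interval -3.10 to -0.39). N3 held 4 of the negative UMIs of each, and without it the log2 ratios were -1.36 and -1.17. The regulators of erythroid genes lay on both sides of 0, each with an interval that includes 0: Gata1 had 20 and 3 UMIs (log2 0.71), Klf1 11 and 1 (1.43), Tal1 39 and 15 (-0.65), Zfpm1 11 and 3 (-0.15) and Nfe2 117 and 30 (-0.064). The erythropoietin receptor Epor had 5 and 1 UMIs (0.29) and the carbonic anhydrase Car1 16 and 1 (1.97), also with intervals that include 0. Lmo2, the most abundant member, was at 997 against 786 CPM (log2 0.34), and Muc13, a mucin of early erythro-megakaryocytic progenitors, at 238 against 366 CPM (log2 -0.62).

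Stem cell genes were split. Summed over 28 genes they were at 3686 against 3457 CPM (log2 0.09, interval -0.04 to 0.23). Of the 12 with enough UMIs 6 were higher and 6 lower, with a median of -0.02. At 1 or more there was 1, against 2.93% of all genes tested, and at -1 or less 1, against 1.28%. Hlf, a transcription factor of stem cells and early progenitors, was higher in the positive wells, at 824 against 457 CPM (log2 0.85, interval 0.50 to 1.22), with medians of 718 and 285 CPM per well. Ly6a, which encodes Sca-1, was at 89.7 against 36.6 CPM (log2 1.29, interval 0.09 to 2.80), and Adgrl4, an endothelial and stem cell receptor, at 789 against 561 CPM (0.49). On the other side, Slamf1, the CD150 antigen used to mark long-term stem cells, had 2 UMIs in 75 positive and 7 in 19 negative wells (log2 -3.83, interval -7.14 to -1.44). Of those 7, L13 held 4, and without it the log2 ratio was -2.13 with the positive sum set to 3 UMIs. Procr, the EPCR antigen also used to mark stem cells, had 26 and 2 UMIs (log2 1.67) with an interval from -0.33 to 4.79. Genes used as stem cell markers thus lay on both sides, and the Flt3-negative wells as a sum did not have a higher level of the list.

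Myeloid priming genes were slightly higher in the positive wells. Their sum was 3116 against 2567 CPM (log2 0.28, interval 0.13 to 0.43), 9 of 11 genes were higher and 2 reached a log2 ratio of 1 or more, against 2.93% of all genes tested. These were Irf8, the regulator of monocyte and dendritic fates, with 47 and 4 UMIs (log2 1.53, interval 0.08 to 3.46), and Tyrobp, a signalling adaptor, with 52 and 5 (1.35, interval 0.04 to 3.03). Csf3r, the G-CSF receptor, was at 142 against 73.2 CPM (0.96), and Plac8, found in many early progenitors, at 594 against 347 CPM (0.77). The granule genes Mpo and Prtn3 were at log2 ratios of 0.25 and 0.34, both with intervals that include 0. That of Mpo was 0.91 without N14 and that of Tyrobp 2.01 without N13, each the negative well with most UMIs of the gene. Without the positive well with most UMIs, the log2 ratio was 0.0061 for Mpo (M15), 1.19 for Tyrobp (M14) and 1.09 for Irf8 (K20). Markers of mature granulocytes were also higher, 8 of 8 of them, with a sum of 2357 against 1725 CPM (log2 0.45), or 0.30 without M14, and with 798 to 12104 CPM per positive and 713 to 3388 CPM per negative well. All 6 erythroblast markers were higher, at 12927 against 8809 CPM (log2 0.55) with 4763 to 168512 and 5536 to 16486 CPM per well, and at a log2 ratio of 0.31 without L11, a well with 16.7% haemoglobin UMIs. The α-globin pair and the β-globin pair are near-identical copies, and how reads were split between them is uncertain. The part of such RNA in the myeloid values was not tested.

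**Figure D4:**
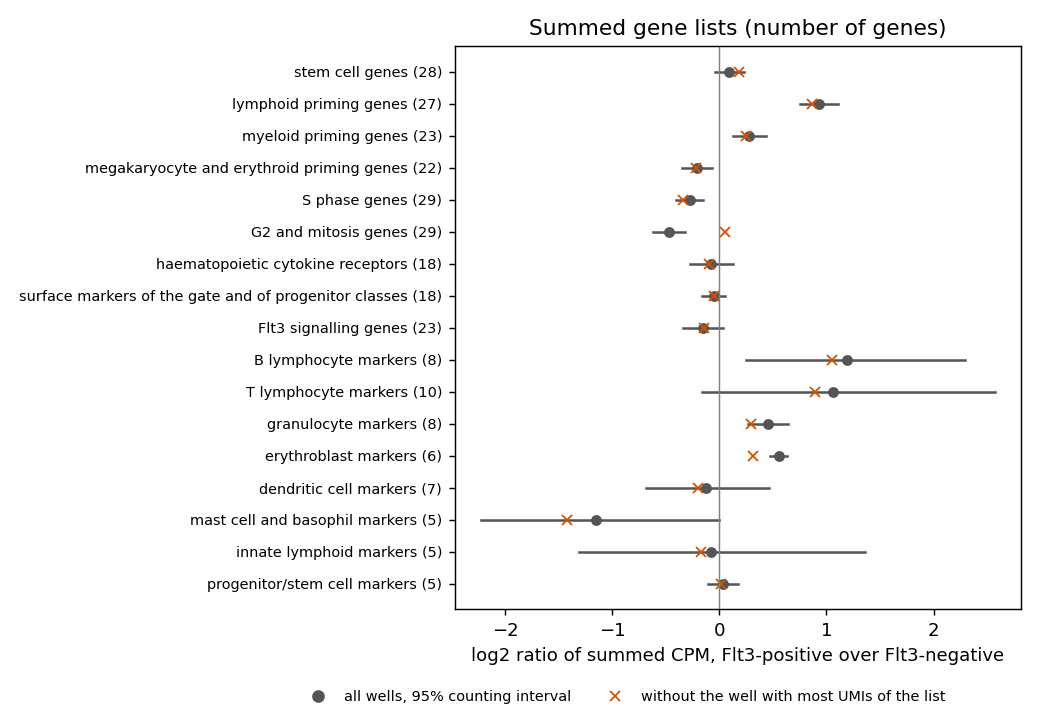
Log2 ratio of the summed CPM of each gene list (horizontal axis, Flt3-positive over Flt3-negative wells) with 95% exact counting intervals; crosses give the ratio without the well that holds most UMIs of the list. The lymphoid priming list stands at 0.93 and the ratio of the G2 and mitosis list turns from -0.47 to 0.052 without 1 well.

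Sums over the receptors and signalling genes around Flt3 had intervals that include 0. The 18 cytokine receptor genes summed to a log2 ratio of -0.07 (interval -0.27 to 0.13). Of the 7 with enough UMIs 0 reached a log2 ratio of 1 and 0 reached -1. Over all genes tested the shares were 2.93% and 1.28%, so counts of 0 among 7 do not set the receptors apart. Kit, the receptor of stem cell factor, was at 653 against 780 CPM (log2 -0.26, interval -0.54 to 0.04). Genes that pass on or restrain the Flt3 signal summed to 1642 against 1823 CPM (log2 -0.15, interval -0.34 to 0.04), with 8 of 11 lower and 2 at -1 or less, against 1.28% of all genes tested, namely Sos1, a Ras exchange factor (40 and 20 UMIs, log2 -1.03), and Mapk3, the kinase ERK1 (33 and 18 UMIs, log2 -1.15). Surface markers of the gate and of progenitor classes summed to a log2 ratio of -0.05 (interval -0.16 to 0.05), with Cd34 at 0.19, Cd27 at 0.15 and Ptprc at 0.03. Cd63, a tetraspanin, was lower in the positive wells (77.8 against 152 CPM, log2 -0.97, interval -1.69 to -0.22), and Cd93, a surface glycoprotein of early progenitors, was higher (504 against 335 CPM, log2 0.59).

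The remaining named genes of the negative side were of mixed function. Slc18a2, the vesicular monoamine transporter, was at 118 against 299 CPM (log2 -1.34, interval -1.87 to -0.79), Serpina3g, a protease inhibitor, at 114 against 280 CPM (-1.30), and Cpsf2, a subunit of the polyadenylation complex, at 132 against 293 CPM (-1.15). Zfp397, a zinc finger protein, Zadh2, an oxidoreductase, and Tent5a, a poly(A) polymerase, had log2 ratios between -1.44 and -1.38. Plxnc1, a semaphorin receptor, was at 142 against 287 CPM (-1.01), and Wee1, the kinase that holds back mitosis, at 79.2 against 183 CPM (-1.21). Plxnc1 and Slc18a2 turned to 0.27 and 0.35 in rows K and L alone. In depth-matched wells they were -0.32 and -0.72, while Slc18a2 was at -2.05 and Zadh2 at -0.40 after thinning. For Wee1 depth-matched wells gave -2.34. Hist1h2ao, a replication-dependent histone gene with near-identical copies, had 40 and 25 UMIs (-1.35), and the ratio was -0.54 without N3, which held 12 of the 25, -2.05 without M18, which held 16 of the 40, and -3.08 in depth-matched wells. The mast cell and basophil markers, of cells in which Gata2 and Slc18a2 are also active, summed to 32.9 against 73.2 CPM (22 and 12 UMIs, log2 -1.15, interval -2.23 to -0.0045). Cpa3, a mast cell protease, held 11 of the 22 positive and 11 of the 12 negative UMIs (log2 -2.03, interval -3.37 to -0.68). The lower sum was thus that of Cpa3, and the other members together did not share its direction. Among them Mcpt8 had 2 and 0 UMIs, Ms4a2 1 and 0, and Prss34 0 in both groups. The part of such RNA in the Gata2 and Slc18a2 values was not tested. Dendritic cell markers (127 and 34 UMIs, log2 -0.13, with Siglech at 0) and innate lymphoid markers (27 and 7 UMIs, log2 -0.08, with Klrb1c at 0) had intervals that include 0. Of the named genes on this side, Slc18a2, Cpsf2 and Hist1h2ao have exons that share bases with an opposite-strand gene model. Exons of Plxnc1 share bases with a model on the same strand.

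Cell cycle genes did not give a stable difference. S phase genes summed to 3462 against 4194 CPM (log2 -0.28, interval -0.40 to -0.15), with 17 of 23 lower, but in rows K and L the ratio was 0.45 and in rows M and N -0.49. G2 and mitosis genes summed to 2075 against 2877 CPM (log2 -0.47, interval -0.62 to -0.32), yet the median well had 1295 CPM in the positive and 960 CPM in the negative group. The negative sum was concentrated: wells N14, N3 and L13 held 174, 102 and 81 of its 472 UMIs, and without N14 the log2 ratio was 0.052. Mki67, a marker of cycling cells, had 227 UMIs in 55 positive wells and 100 UMIs in 11 negative wells (log2 -0.84), of which N14 held 53, and without N14 its log2 ratio was 0.10.

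Levels were also set out by the number of Flt3 UMIs, as a description, since the same counts define the bins. The bins held 19 wells with 0, 17 with 1, 22 with 2 to 3 and 36 with 4 or more Flt3 UMIs, at median depths of 8336, 6487, 7247 and 8337 UMIs. H2afy was at 1055, 1604, 2304 and 3275 CPM along this order, with intervals that did not overlap between neighbouring bins. Emb was at 85.3, 211, 276 and 445 CPM and Cd52 at 48.8, 105, 155 and 222 CPM, where the neighbouring intervals overlapped for Cd52 throughout and for Emb between 0 and 1 and between 1 and 2 to 3 UMIs. These genes were graded, whereas Dntt was not: it was at 48.8, 81.0, 44.2 and 821 CPM, so that 299 of its 317 UMIs in positive wells lay in the wells with 4 or more Flt3 UMIs. Ighm was at 12.2, 40.5, 88.4 and 398 CPM.

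The genes of the other side went down along the same bins. Gata2 was at 299, 219, 127 and 52.2 CPM, Apoe at 335, 146, 77.3 and 41.2 CPM, and Itga2b at 177, 81.0, 44.2 and 16.5 CPM. For each the interval of the last bin lay below that of the first, while neighbouring bins mostly overlapped. Slamf1 had 7, 2, 0 and 0 UMIs. Hlf followed neither order, at 457, 1037, 845 and 741 CPM: its low level was found in the wells with 0 Flt3 UMIs, and the wells with 1 Flt3 UMI, at the edge of the rule, had the highest value, with an interval (865 to 1233 CPM) that overlapped that of the wells with 2 to 3. Kit was even in the first 3 bins (780, 810 and 768 CPM) and lower in the last (543 CPM). The wells with 1 Flt3 UMI lay between the bins beside them for H2afy, Emb, Cd52, Ighm, Gata2, Apoe and Itga2b, but not for Hlf, Kit or Dntt. Their S phase sum (1928 CPM) was below those of the other bins (4194, 4254 and 3588 CPM). They were the shallowest bin (median 6487 UMIs), and the S phase ratio of the 2 groups changed sign between plate rows. The S phase value therefore does not place these wells.

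**Figure D5:**
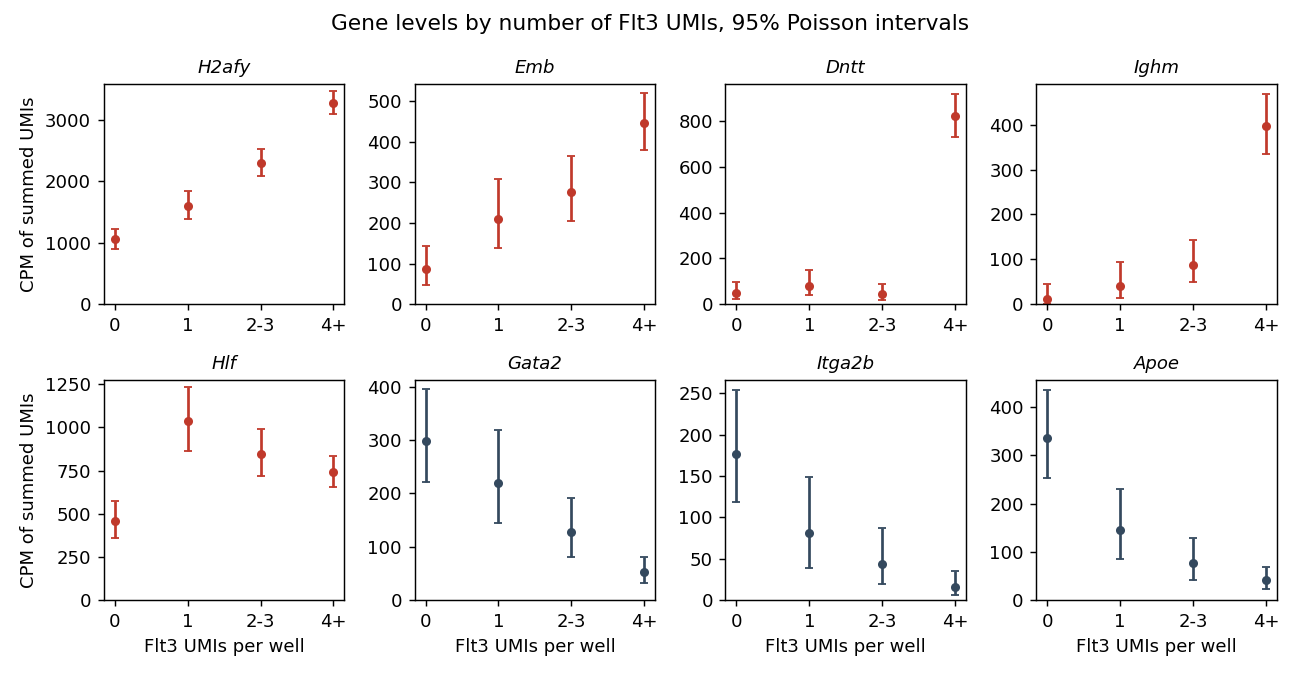
CPM of summed UMIs (vertical axis, from 0) for 8 genes in wells with 0, 1, 2 to 3 and 4 or more Flt3 UMIs (horizontal axis), with 95% exact Poisson intervals. H2afy and Emb climb step by step to 3275 and 445 CPM, Dntt and Ighm stand apart in the last bin, Hlf is highest at 1 UMI, and Gata2, Itga2b and Apoe go down to 52.2, 16.5 and 41.2 CPM.

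The fluorescence recorded when each cell was sorted was not used by the split. The c-Kit signal was lower in the Flt3-positive cells, with 2842 at the lowest, 6124 at the median and 11442 at the highest (arbitrary units), against 5134, 7451 and 11279 in the negative cells. The positive cell had the higher c-Kit signal in 27.6% of pairs, and the medians along the Flt3 bins were 7451, 6233, 6876.5 and 4929.5. CD44 ran the other way, with medians of 6756 and 6070, the positive cell higher in 70.2% of pairs, and bin medians of 6070, 5920, 6426 and 7598.5. For c-Kit, transcript and protein both were lowest in the wells with 4 or more Flt3 UMIs, whereas Cd44 had only 22 and 6 UMIs, too few to compare. The Sca-1 signal had medians of 5161 and 4972 and was higher in the positive cell in 60.6% of pairs. Forward scatter area, which follows cell size, had medians of 106000 and 109000, and the lineage stains were at like levels in both groups, with medians of 73 and 62 for B220, 121 and 96 for Mac-1, 72 and 95 for Gr1, 48 and 62 for Ter119, and 464 and 443 for CD3, which was the highest of them.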

How the data were processed

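The authors sorted single cells by index sorting, prepared CEL-seq2 libraries and used scPipe to align reads, assign them to exons, demultiplex wells and collapse UMIs. The table they deposited is of raw UMI counts, a gene to a row and a well to a column. Which genome build, annotation and strand setting they used was not given in the sources used here, so symbols came from GENCODE M21 by gene ID. A further 9 columns could be tied to none of the samples and stayed out. Counts were summed over the Flt3-positive and Flt3-negative wells and scaled to CPM over mouse genes without ERCC spike-ins. Intervals (95%) were exact Poisson for sums, exact binomial for shares and exact conditional binomial for ratios, and the interval method was tested on simulated data. Each log2 ratio compares CPM of sums with no pseudocount. Genes with at least 50 UMIs over both groups were counted. Doublets were not called.

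The named genes are the 12 highest and 12 lowest protein-coding genes with a UMI in at least 25% of wells of the higher group and the same sign with wells weighted equally and without the top well, ranked by the interval bound nearest 0 with sums under 3 UMIs set to 3; members of the 17 lists were named in addition. The split, the lists and their 250 measured genes were chosen with earlier results of these data known, and some list members, though counted in the sums, are not reported here by name. Alternatives changed the weighting, depth, minimum UMIs, Flt3 threshold, plate rows, filters and scaling (TMM, edgeR). Python with numpy, pandas and scipy was used.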

Additional observations from a re-analysis of the deposited data

How the results depend on the processing

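The 96 higher and 42 lower genes became 369 and 283 with a filter of 20 UMIs and 24 and 7 with a filter of 100 UMIs. Thinning to 3000 UMIs per well (1 draw) gave 152 and 164, depth-matched wells 115 and 166, and TMM factors 144 and 25. Rows K and L gave 97 and 218, and rows M and N 174 and 106. With 4 or more Flt3 UMIs against 0 they were 124 and 94, a setting chosen after seeing the data, as was leaving out the top well of a list. The genes counted were partly different ones. Of the 96 higher genes 14 stayed at 1 or more in rows K and L and 30 after thinning, while 83 and 91 kept their sign. Of the 42 lower genes 24 and 28 stayed at -1 or less, and 40 kept their sign in each. The smaller sums give each gene a wider counting error. The share of Flt3-positive wells was 60.6% after thinning and 61.7% with 2 or more UMIs required. The lymphoid priming sum stayed higher under every alternative run, with 0.75 for equal weights, 0.45 after thinning and 1.20 for 4 or more Flt3 UMIs. The myeloid priming sum was 0.12 after thinning. The megakaryocyte and erythroid sum was -0.043 with equal weights and -0.37 for 4 or more Flt3 UMIs, and the stem cell sum was -0.15 in rows K and L and -0.068 for 4 or more Flt3 UMIs. The S phase sum was 0.45 in rows K and L, -0.49 in rows M and N and -0.14 with 2 or more Flt3 UMIs. The G2 and mitosis sum was -0.27 with equal weights, -0.17 after thinning, -0.70 in depth-matched wells, -0.25 for 4 or more Flt3 UMIs, 0.030 without the deepest well of each group and 0.052 without its top well. Among the named genes only Plxnc1 and Slc18a2 changed sign, to 0.27 and 0.35, in rows K and L. The cause of these changes was not tested. No paired analysis was possible because both groups are wells of 1 mouse and no test was run. Depth limits the reading of any well with 0 UMIs of a gene.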

Other observations

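Single wells stood apart from their group in ways the comparison does not describe. L24, counted as Flt3-negative, had 7 Dntt UMIs, or 1403 CPM, a level that 7 of the 75 Flt3-positive wells exceeded. L11, counted as Flt3-positive, had 16.7% of its UMIs on haemoglobin genes, against a highest value of 1.60% among the Flt3-negative wells. M14 and K6, both Flt3-positive, held 201 and 174 UMIs of the granulocyte markers together with 11 and 10 of the 93 B lymphocyte marker UMIs and 7 and 6 of the 51 T lymphocyte marker UMIs of their group.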
